A study of Spirodela polyrhiza with 16 samples.

Results

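Without phosphate, a set of transcripts moved the same way in the fronds and in the roots of the giant duckweed Spirodela polyrhiza, a floating plant made of leaf-like fronds with roots that hang in the water. The larger rises included a plastid prenyltransferase, enzymes of sulfate activation and reduction, the first enzyme of inositol synthesis and chaperones of the HSP90 cycle. The larger falls included homologs of circadian clock proteins. The response common to both organs was taken as the main effect of treatment in a model that also held tissue, over 16 of 16 libraries. All plants were clone 9509, grown in 250 ml flasks with 100 ml of N-Media, which was exchanged on day 10 either for fresh full medium (control) or for medium lacking KH2PO4 (no phosphate). On day 11 each flask gave a pool of fronds and a pool of roots, which made 4 groups of 4 libraries, fronds and roots each with and without phosphate.

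Plants sense phosphate through proteins with an SPX domain, which bind inositol pyrophosphates and, when phosphate is ample, hold back transcription factors of the PHR family. When phosphate runs short, PHR factors raise genes for phosphate uptake, acid phosphatases, replacement of phospholipids by galactolipids and sulfolipids, and glycolytic steps that spare phosphate or ATP. Much of this was worked out in Arabidopsis and rice. The genes below carry the duckweed identifiers of the deposited table with the name of the closest homolog listed there, and the duckweed gene need not share the function of its homolog.

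Polyadenylated RNA was read as 150 bp pairs, and the deposited values were FPKM, fragments scaled to gene length and to a library size. The library size implied by the values was 0.886 to 0.970 of the reads recovered from them in fronds and 1.03 to 1.14 in roots. A total of mapped reads cannot be smaller than the reads on genes, so the scale differed between organs by more than depth. How it was set was not tested. Reads recovered from them summed to 6325297 to 12437151 per library, with a mean of 7669605 for control fronds against 8111859 without phosphate, and of 7207233 for control roots against 9633438 without phosphate. In each organ the control libraries are numbered from 1 to 4 and those without phosphate from 5 to 8, and values are given in that order. Fronds and roots of 1 flask share that flask, so the libraries stand for fewer flasks than their number. The organ labels were checked against markers. The summed FPKM of 36 photosynthesis markers was 94336 to 102859 in control fronds and 86211 to 95207 in no-phosphate fronds, against 36318 to 52332 and 30497 to 45370 in the corresponding roots. A Casparian strip membrane protein 1 homolog (Sp04g00111), a marker of root endodermis, lay at 1.73 to 3.56 FPKM in control fronds and at 35.1 to 67.8 in control roots. The summed level of 31 root keyword genes overlapped between control organs, at 1158 to 1266 in fronds and 1188 to 1664 in roots. In bulk tissue, fewer cells of a type and less RNA per cell cannot be told apart.

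The first question was how much of the response both organs had in common. Of 20389 genes, 16598 averaged 0.5 FPKM or more over the libraries and were tested with limma on the log2(FPKM + 1) scale, which understates changes of low genes. The main effect of treatment was called for 1290 genes at a Benjamini-Hochberg adjusted p under 0.05, or 7.77% of those tested. Of these, 770 rose (4.64%) and 520 fell (3.13%). The split moved with the scaling, to 555 rises and 858 falls when all libraries were given equal FPKM sums and to 704 and 689 after quantile normalization. Scaling by the median of ratios left it at 771 and 520. The median change over all tested genes was -0.01 as deposited and -0.04 after rescaling to equal sums. Most called changes were moderate, with a median size of 0.49 on the log2 scale, while 48 rises and 24 falls reached 1.

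Fronds alone gave 732 called genes (4.41% of those tested) and roots alone 70 (0.422%), and the main effect also called 482 of the first and 64 of the second. Only 32 of the 1290 genes were called in each organ alone and 776, or 60.2%, in neither, so that most were called only when both organs entered 1 fit. All 1290 had the same sign in both organs, which the choice by a common effect largely fixes. The change was larger in fronds for 784 of them and in roots for 506, and in 117 the smaller of the 2 changes was under 0.2. The median size was 0.53 in fronds and 0.45 in roots, against 0.20 and 0.18 over all tested genes. The spread between libraries was wider in roots, where the median SD within a group was 0.27 against 0.21 in fronds.

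A stricter test asked for a change in each organ separately, taking the larger of the 2 organ-wise p-values. It called 0 genes (0.0%), the smallest adjusted p being 0.185, with 848 genes at an unadjusted p under 0.05 (547 rises, 301 falls). With voom on the recovered reads, a setting added once the values were known, it also called 0. Without no-phosphate root library 5 the same test called 21 genes, and these, named here after their values were seen, are given with the libraries that stand apart below. The test of whether the change differed between organs called 0 genes too (0.0%), with a smallest adjusted p of 0.0645 and 1843 genes at an unadjusted p under 0.05. With voom that test called 2. Without no-phosphate root library 6 it called 116. Genes with an unadjusted interaction p under 0.05 made up 11.9% of the called genes and 11.1% of all tested genes.

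To describe changes visible in each organ, called genes were kept whose 4 control and 4 no-phosphate libraries did not overlap, in fronds and in roots alike. They numbered 198 rises (1.19% of tested genes) and 57 falls (0.343%), together 19.8% of the called genes, and are called the common genes below. The lack of overlap given for single common genes below follows from this rule. A share of 25.7% of the called rises and 11.0% of the called falls were among them. Without control root library 3, 243 of the 255 common genes were still called, against 255 without no-phosphate root library 5 and 245 after rescaling to equal sums. In the opposite sense, 22 tested genes had no overlap in either organ but moved in opposite directions. Across all 16598 genes 59.0% had the same sign in both organs, and the frond and root changes had a Pearson correlation of 0.34, or 0.41 over the 12482 genes averaging 5 FPKM or more. These correlations are across genes, which are not independent, and are given as a description.

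**Figure D1:**
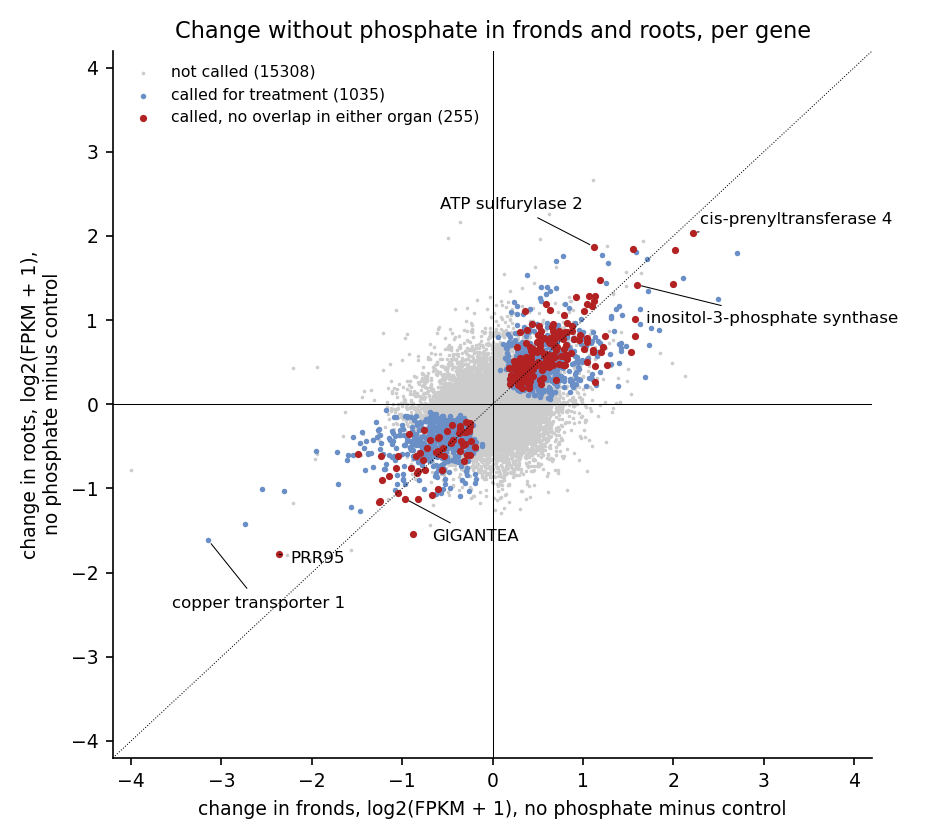
Each point is a tested gene, with its change in fronds on the horizontal axis and in roots on the vertical axis, both as log2(FPKM + 1) without phosphate minus control. Blue points were called for the main effect of treatment and red points are the 255 common genes. The rule that chose the common genes places them in the upper right and lower left. The dotted line marks equal change, and some lie well off it, such as Sp17g00168 (1.14 in fronds, 0.26 in roots).

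The common genes were expressed at a median of 52.0 FPKM, against 15 for tested genes, 40.7 for called rises and 26.7 for called falls. Their median coding length was 1185 bases against 978 for tested genes. A homolog or domain was listed for 89.4% of them and for 74.5% of tested genes. Among genes with a homolog, the homolog's name held the word chloroplastic in 48 of 166 common rises (28.9%), in 10 of 46 common falls (21.7%) and in 11.0% of tested genes. Over all called genes it was held by 25.1% of rises and 14.0% of falls, so the share of the common rises was near that of called rises in general. The word mitochondrial was held by 6.02% of common rises, 10.9% of common falls and 5.30% of tested genes, beside 6.4% of called rises and 5.39% of called falls. The mean was higher in control fronds than in control roots for 57.6% of common rises, 68.4% of common falls and 51.1% of tested genes. It was so for 53.2% of called rises and 52.3% of called falls. These shares carry no test, and level and length differ between the sets.

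Among the common genes, 9 pairs were direct neighbours on a chromosome, and both members of each pair moved the same way. Since 198 of the 255 common genes rose, many pairs would agree without any link. The number of neighbours among as many genes taken at random was not worked out. In 4 of the 9 pairs both genes had the same homolog, so that they may be tandem copies or parts of 1 gene, which was not tested. Same-strand pairs with differing homolog names may also be parts of 1 gene, which was not tested either. The coordinates are those of the deposited table, whose genome build is not given in the sources used here. The pairs included the SPX membrane proteins Sp14g00561 and Sp14g00562 (chromosome 14, 3176017 to 3200751) and the GIGANTEA homologs Sp05g00030 and Sp05g00031 (chromosome 5, 108420 to 117198). They also included the sulfate transporter 1.3 homologs Sp07g01016 and Sp07g01017 (chromosome 7, 7419462 to 7422675), which lie on opposite strands. The counting is not stated to use strand, so reads of overlapping or adjoining genes may have been shared.

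Of all tested genes, 8.51% were called after rescaling to equal sums, 13.3% without no-phosphate root library 5 and 5.08% without control root library 3. The list shares below stand beside these. The phosphate signalling list held 15 tested genes, of which 3 rose and 0 fell, or 20% called, beside 7.77% of all tested genes. All 3 were common genes. The median main effect of the list was 0.11, with 0.21 in fronds and 0.00 in roots, against -0.01 over all tested genes. Among the 3, Sp14g00561 and Sp14g00562 are same-strand neighbours with 1482 and 627 coding bases. Whether they are parts of 1 gene was not tested. Sp14g00562, a homolog of an SPX membrane protein of the family that moves phosphate across the vacuole membrane, stood at 17.1, 15.2, 15.3 and 12.6 FPKM in control fronds and at 59.9, 55.0, 36.3 and 34.6 without phosphate. Its values in roots were 32.2, 27.5, 23.8 and 24.8 FPKM in control and 34.8, 40.2, 50.3 and 43.3 without phosphate. The frond groups lay well apart while the root groups only just separated, between control library 1 and no-phosphate library 5. The main effect was 1.07 ± 0.16 (SE; adjusted p = 0.00164), with 1.53 in fronds and 0.62 in roots. Its neighbour Sp14g00561 rose by 0.79 ± 0.16 (SE; adjusted p = 0.00664).

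The third member that rose, Sp01g01152, is a homolog of ALTERED PHOSPHATE STARVATION RESPONSE 1, known in Arabidopsis from roots short of phosphate. It stood at 36.0, 38.5, 30.4 and 31.2 FPKM in control fronds and at 53.2, 50.9, 49.2 and 44.5 without phosphate. In roots the values were 28.9, 23.4, 21.1 and 20.7 FPKM in control and 30.3, 45.6, 44.7 and 50.4 without phosphate. Neither organ overlapped, and no-phosphate root library 5 lay just above the highest control. The main effect was 0.68 ± 0.11 (SE; adjusted p = 0.00224).

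The soluble sensor SPX3 (Sp08g00151), a textbook target of PHR factors, had a main effect of 0.72 that missed the threshold (adjusted p = 0.0770). Its frond libraries rose from 3.36, 4.22, 7.24 and 4.91 FPKM to 21.5, 18.6, 8.25 and 12.4 FPKM without phosphate (1.41 in fronds, adjusted p = 0.00857). Among the root libraries it lay at 18.5, 16.2, 26.0 and 19.4 FPKM in control and at 23.4, 19.9, 20.8 and 16.8 without phosphate, and the groups overlapped (0.02, adjusted p = 0.977). The PHR2 homologs Sp02g00122 and Sp09g00058 had main effects of 0.07 and -0.11 (adjusted p = 0.508 and 0.667).

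The phosphate transport list, found by keyword, held 49 tested genes with 7 rises and 2 falls (18.4%) and a median of 0.08, against 4 and 2 after rescaling to equal sums. Sp14g00317, a homolog of mitochondrial phosphate carrier protein 1, which brings phosphate into mitochondria, was a common gene. It went from 9.83, 10.4, 10.2 and 7.80 to 18.3, 21.7, 14.9 and 14.9 FPKM in fronds and from 12.9, 14.9, 7.09 and 10.8 to 15, 19.0, 16.5 and 17.6 FPKM in roots (main effect 0.69 ± 0.13 (SE; adjusted p = 0.00515)). The root groups nearly touched. The plastid phosphoenolpyruvate/phosphate translocator 2 (Sp13g00366) rose by 1.2 ± 0.23 (SE; adjusted p = 0.00628), with no overlap in roots and overlap in fronds. The glucose-6-phosphate/phosphate translocator 2 (Sp17g00348), which exchanges sugar phosphate for phosphate at the plastid envelope, fell by 0.53 ± 0.10 (SE; adjusted p = 0.00628). It overlapped in roots. The other common gene on this list was a stress-gated channel (Sp03g00501, main effect 0.48), taken in by keyword.

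Among 25 acid phosphatases, which release phosphate from organic compounds, 2 rose and 0 fell (8%), near the 7.77% of all tested genes, and the list median was -0.05. After rescaling to equal sums the list had 1 rise and 2 falls, and without no-phosphate root library 5 it had 2 and 2. One of the rises (Sp06g01067) lost its call in 21 of 38 alternatives. The common gene was an inactive purple acid phosphatase 27 homolog (Sp10g00286), which rose from 12.7 ± 2.27 to 20.6 ± 3.10 FPKM in fronds and from 41.5 ± 4.38 to 58.0 ± 6.65 FPKM in roots (mean ± SD, n = 4). Its main effect was 0.57 ± 0.10 (SE; adjusted p = 0.00312). The purple acid phosphatase 17 homolog Sp07g00875 had a main effect of 0.36 that missed the threshold (adjusted p = 0.0718).

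The phosphorus scavenging list, of nucleases, phospholipases, phosphodiesterases and pyrophosphatases, had 5 rises and 3 falls among 43 tested genes (18.6%) and a median of 0.03. All 4 called genes listed as pyrophosphatases, a name for enzymes that split pyrophosphate to phosphate, rose. The one among the common genes was soluble inorganic pyrophosphatase 4 (Sp06g01233), at 89.1, 109, 80.5 and 70.2 FPKM in control fronds and 179, 195, 159 and 185 without phosphate. Its root libraries stood at 158, 157, 85.2 and 139.5 FPKM in control and at 234, 192, 242 and 248 without phosphate. Every no-phosphate library lay above every control library of its organ, with a main effect of 0.92 ± 0.13 (SE; adjusted p = 0.00109). The other 3 were Sp08g00941 (0.70), Sp14g00038 (0.56) and Sp06g01237 (0.33). The domain listed for Sp08g00941 is that of a putative phosphatase, not the inorganic pyrophosphatase domain of Sp06g01233.

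The phosphodiesterase GDPD6 (Sp03g00551), which acts on glycerophosphodiesters left by phospholipid breakdown, rose by 0.64 ± 0.11 (SE; adjusted p = 0.00398) with no overlap in either organ. In contrast to these rises, phospholipase D alpha 1 (Sp08g01305), which cuts phospholipid head groups, fell without overlap in either organ (main effect -0.39 ± 0.11 (SE; adjusted p = 0.0320)). Phospholipase D delta (Sp02g00858, main effect -0.31) and bifunctional nuclease 2 (Sp19g00323, main effect -0.77) were the other called falls, both with overlap in roots. Bifunctional nuclease 2 lost its call when the frond and root libraries numbered 3, or those numbered 6, were both left out, with an adjusted p of up to 0.0673.

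Among 59 inositol phosphate genes, 3 rose and 2 fell (8.47%), near the 7.77% of all tested genes, and the median was -0.00. Without no-phosphate root library 5 the list had 6 rises and 3 falls (15.3%), beside 13.3% of all tested genes. Inositol-3-phosphate synthase (Sp04g01322), which makes the inositol ring from glucose 6-phosphate, had the smallest adjusted p of the genes named here. It stood at 117, 122, 128 and 81.9 FPKM in control fronds and at 388, 373, 310 and 291 without phosphate. In roots it stood at 44.5, 36.8, 21.3 and 23.5 FPKM in control and at 54.8, 98.0, 89.3 and 95.3 without phosphate. No libraries overlapped, and no-phosphate root library 5 was again the lowest of its group. The means rose 3.03-fold in fronds and 2.68-fold in roots, with a main effect of 1.51 ± 0.16 (SE; adjusted p = 0.000594).

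DSP1 (Sp05g00658), a homolog of a phosphatase that acts on inositol pyrophosphates in Arabidopsis, rose by 1.33 ± 0.17 (SE; adjusted p = 0.001). Its frond values went from 18.5, 19.9, 32.9 and 20.3 to 91.4, 73.4, 78.7 and 68.8 FPKM. Its root values went from 58.5, 46.6, 37.2 and 41.1 to 58.5, 96, 112 and 85.5 FPKM, where no-phosphate library 5 was level with the highest control. Inositol monophosphatase 3 (Sp03g00657), which frees inositol from its phosphate, rose by 0.45 ± 0.08 (SE; adjusted p = 0.00535). Phosphatidylinositol 4-kinase alpha 1 (Sp18g00297) fell by 0.26 without overlap and lost its call under 8 of 38 alternatives.

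Galactolipid and sulfolipid genes had 5 rises and 0 falls among 19 tested (26.3%), with the highest positive median of the lists, 0.21. The common gene was a monogalactosyldiacylglycerol synthase (Sp12g00726), which makes the main galactolipid of plastids, at 155, 158, 161 and 133 FPKM in control fronds and 214, 219.9, 179.5 and 176 without phosphate. The root libraries stood at 65.5, 73.5, 59.6 and 59.0 FPKM in control and 73.8, 83.0, 96.9 and 81.5 without phosphate. The groups separated narrowly in both organs, by a mean of 1.3-fold in each and a main effect of 0.37 ± 0.08 (SE; adjusted p = 0.00995). Its largest adjusted p under any alternative was 0.0458. The neighbouring digalactosyldiacylglycerol synthase models Sp04g00246 and Sp04g00247 rose by 0.65 and 0.38, and the lipid importer TGD2 (Sp10g01035) by 0.55, each with overlap in roots. Whether the neighbouring models are parts of 1 gene was not tested.

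Glycolytic bypass and organic acid genes had 14 rises and 4 falls among 63 tested (28.6%) and a median of 0.05. Phosphoenolpyruvate carboxylase (Sp05g00418), which turns phosphoenolpyruvate to oxaloacetate and frees its phosphate, stood at 165, 194, 123 and 145 FPKM in control fronds and at 235, 233, 209 and 211 without phosphate. Its values in roots were 395, 313, 249 and 316 FPKM in control and 459, 709, 583 and 682 without phosphate. Neither organ overlapped, and the main effect was 0.72 ± 0.12 (SE; adjusted p = 0.00329).

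The non-phosphorylating glyceraldehyde-3-phosphate dehydrogenase, which bypasses a step that takes up phosphate, was listed as 3 adjoining models, and all of them rose (Sp12g00672, 0.74, Sp12g00673, 0.82, and Sp12g00674, 0.88), each with overlap in roots. Whether these models are parts of 1 gene was not tested. The alternative oxidase (Sp09g00695), which passes electrons to oxygen without making ATP, rose from 119 ± 12.2 to 162 ± 19.1 FPKM in fronds and from 45 ± 11.4 to 70.6 ± 13.6 FPKM in roots (mean ± SD, n = 4). Its main effect was 0.55 ± 0.12 (SE; adjusted p = 0.0115). NADP-malic enzyme (Sp13g00553) rose by 0.76 ± 0.12 (SE; adjusted p = 0.00235), with overlap in roots. Against the name of the list, ATP-dependent phosphofructokinase 3 (Sp13g00568) was a common gene that rose (0.69 ± 0.12 (SE; adjusted p = 0.00333)), and the beta subunit of the pyrophosphate-dependent phosphofructokinase (Sp12g00184), which can replace it, fell by 0.62 ± 0.13 (SE; adjusted p = 0.00900). The latter overlapped in roots.

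**Figure D2:**
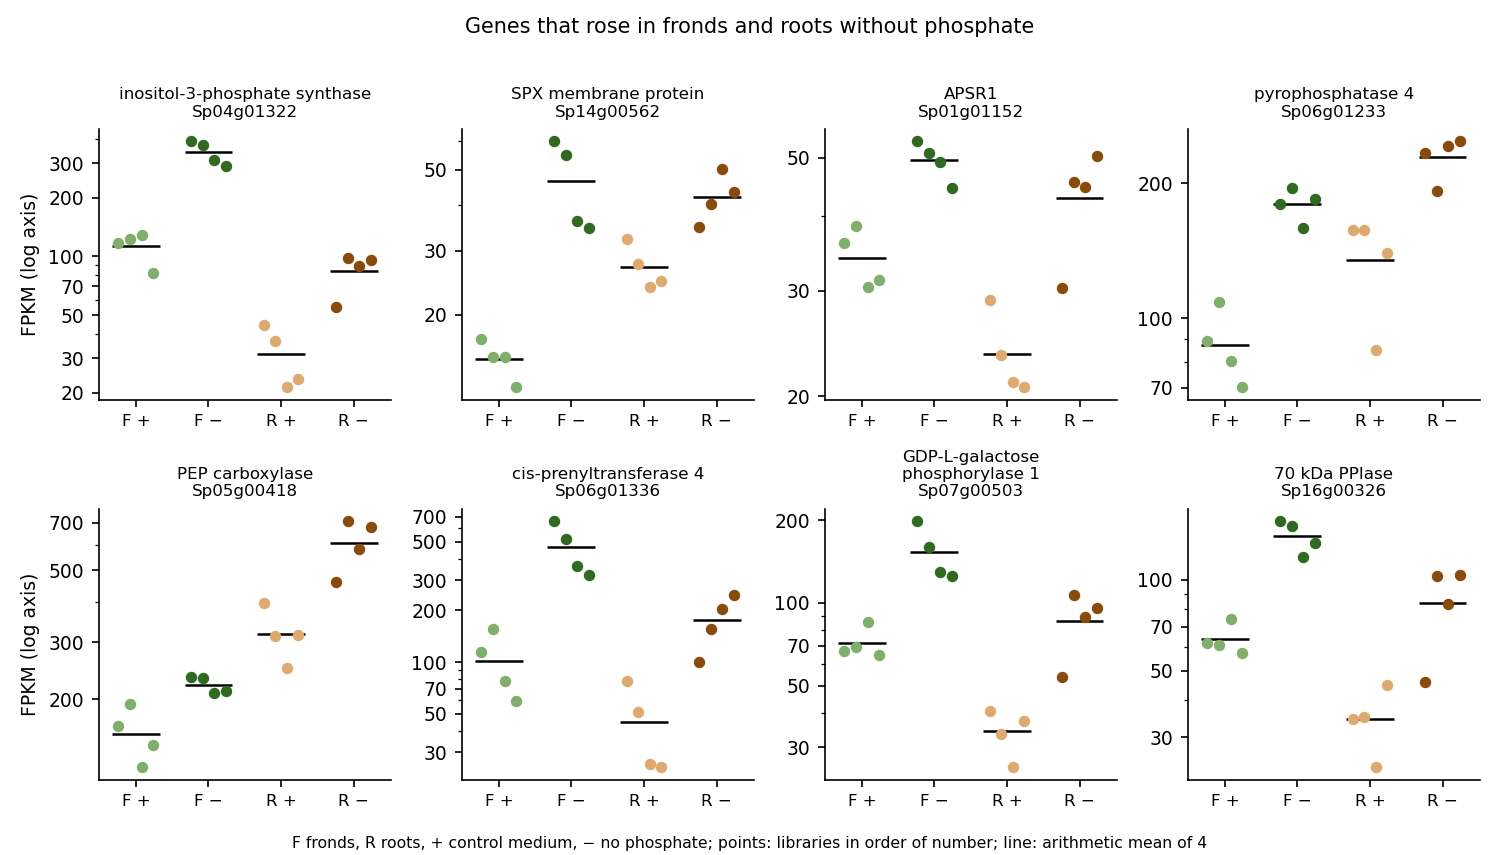
FPKM on log axes of 8 of the common genes, in fronds (F) and roots (R) with control medium (+) and without phosphate (−). Points are the 4 libraries of a group in order of their number, and lines are arithmetic means. The rule that chose the common genes places the no-phosphate libraries of an organ above its control libraries in each panel. In roots no-phosphate library 5 (the leftmost point) is the lowest of its group in 7 of the 8 panels.

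Sulfate assimilation genes had 8 rises and 4 falls among 35 tested (34.3%) and a median of 0.03, against 8 and 6 after rescaling to equal sums. The rises took in transport, activation and reduction. Sulfate transporter 1.3 (Sp07g01016) stood at 47.7, 53.4, 67.8 and 44.7 FPKM in control fronds and at 112, 128, 118 and 103 without phosphate. Among the root libraries it lay at 47.1, 38.3, 30.1 and 35.0 FPKM in control and at 49.4, 52.3, 63.3 and 73.0 without phosphate. The groups separated in both organs, more widely in fronds, and the main effect was 0.88 ± 0.12 (SE; adjusted p = 0.00114).

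ATP sulfurylase 2 (Sp02g00744), which activates sulfate with ATP, stood at 231, 259, 189.6 and 144 FPKM in control fronds and at 490, 515, 416 and 349 without phosphate. In roots it stood at 116, 87.4, 18.8 and 31.7 FPKM in control and at 146, 155, 198 and 265 without phosphate. Control root libraries 3 and 4 lay far below libraries 1 and 2. The main effect was 1.5 ± 0.30 (SE; adjusted p = 0.00772), with 1.12 in fronds (adjusted p = 0.141) and 1.87 in roots (adjusted p = 0.0567).

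5'-adenylylsulfate reductase 3, which reduces the activated sulfate, had 2 homologs. Sp13g00992 stood at 18.9, 24.4, 34 and 32.3 FPKM in control fronds and at 127, 159.5, 91.0 and 78.4 without phosphate. The root libraries stood at 16.6, 8.10, 8.33 and 5.77 FPKM in control and at 17.7, 23.3, 25.6 and 42.9 without phosphate. All no-phosphate libraries lay above the controls of their organ, by 1.71 ± 0.22 (SE; adjusted p = 0.001). The more abundant homolog Sp17g00278 rose by 1.80 ± 0.32 (SE; adjusted p = 0.00359), from 208 ± 53.9 to 989 ± 519.8 FPKM in fronds and from 89.9 ± 59.3 to 239.9 ± 97.4 FPKM in roots (mean ± SD, n = 4). Its root groups overlapped, control library 1 being at 175 and no-phosphate library 5 at 106 FPKM.

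Homologs for the next step moved in opposite directions. Of 2 homologs of sulfite reductase 1, which makes sulfide, Sp01g00257 fell by 1.2 on the log2 scale (SE 0.23; adjusted p = 0.00543) and Sp03g00692 rose by 0.55 ± 0.11 (SE; adjusted p = 0.00615), with overlap in roots. The falling copy stood at 29.9, 44.1, 43.5 and 62.5 FPKM in control fronds and at 13.5, 20.5, 19.1 and 18.8 without phosphate. Its values in roots were 20.8, 15.1, 44.1 and 9.60 FPKM in control and 9.44, 6.13, 9.39 and 7.88 without phosphate. The root groups separated narrowly, and control library 3 was the highest. Without that library the main effect was -1.03 (adjusted p = 0.00569).

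Adenylyl-sulfate kinase 3 (Sp09g01038), which diverts activated sulfate to sulfation reactions, fell by 0.35 ± 0.08 (SE; adjusted p = 0.0132) with no overlap in either organ. Serine acetyltransferase 5 (Sp08g00934), which supplies the carbon skeleton of cysteine, rose by 0.91 ± 0.16 (SE; adjusted p = 0.00398), and its root groups overlapped. No sulfate salt was named as changed between the media, whose full composition is not given in the sources used here.

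**Figure D3:**
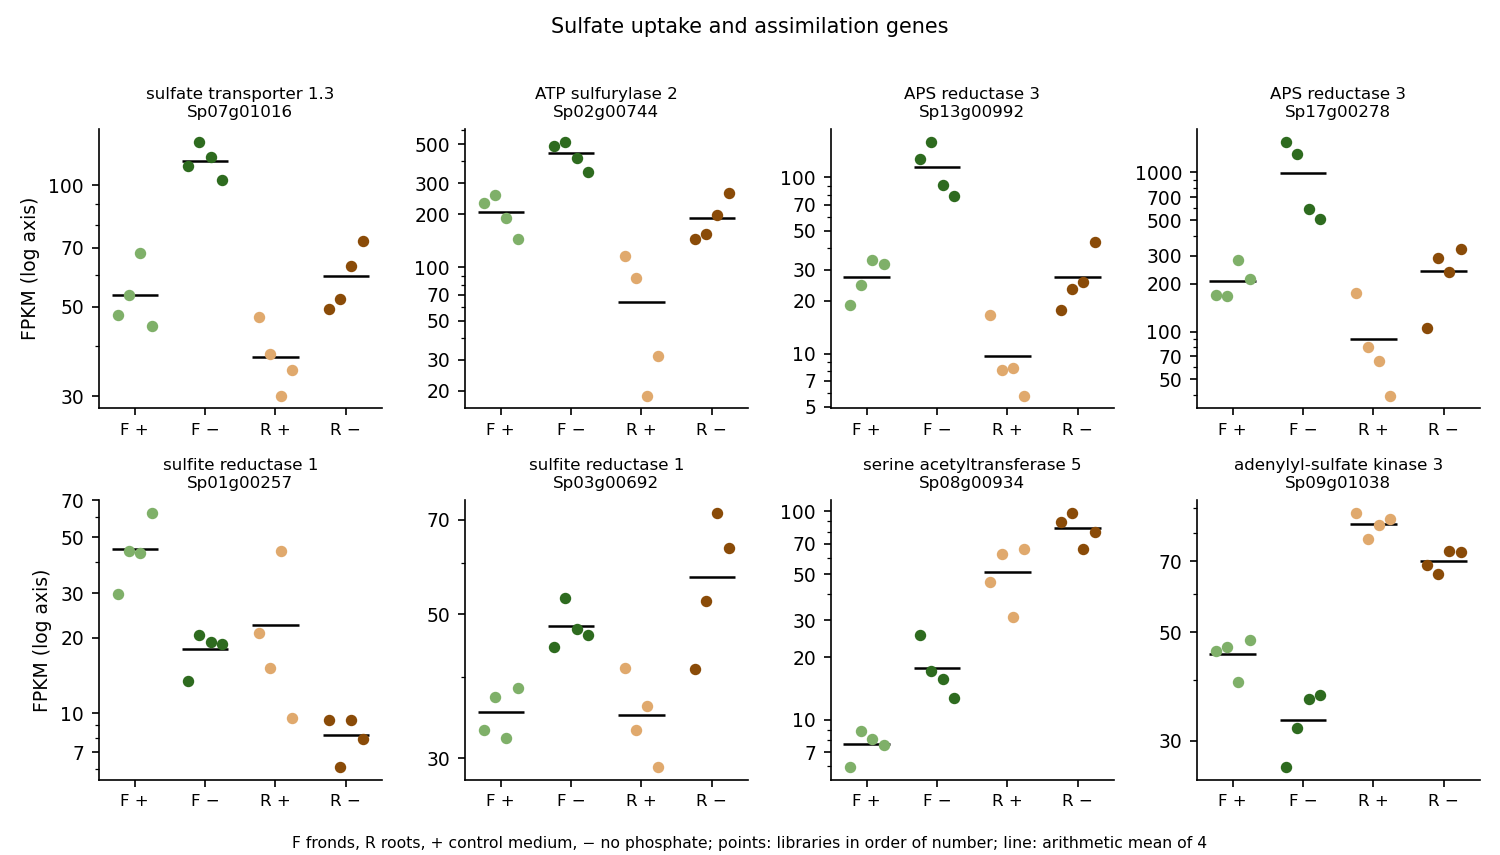
FPKM on log axes of 8 called genes of sulfate transport and assimilation, by organ and treatment as in the plot of risen genes. Means of the transporter, ATP sulfurylase and both APS (5'-adenylylsulfate) reductases were higher without phosphate in both organs, while the sulfite reductase homologs moved in opposite directions, with means in fronds from 45 to 18.0 and from 35.3 to 47.9 FPKM.

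The largest main effect among the common genes was that of Sp06g01336 (chromosome 6, 8296159 to 8298844), listed as chloroplastic cis-prenyltransferase 4, an enzyme that builds long polyprenyl chains. It stood at 114, 156, 78.1 and 59.3 FPKM in control fronds and at 661, 521, 360.4 and 323 without phosphate. Among the root libraries it lay at 77.3, 51.5, 25.5 and 24.5 FPKM in control and at 99.7, 155, 205 and 245 without phosphate. No libraries overlapped, and the main effect was 2.13 ± 0.27 (SE; adjusted p = 0.000779), with 2.22 in fronds and 2.04 in roots. Of 20 polyprenyl synthesis genes 2 rose and 0 fell (10.0%, beside 7.77% of all tested genes), with a median of 0.05. The other was a solanesyl-diphosphate synthase 3 homolog (Sp19g00404, main effect 0.61), whose product forms the side chain of plastoquinone in Arabidopsis.

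Ascorbate and glutathione genes had 8 rises and 2 falls among 79 tested (12.7%) and a median of 0.03, against 4 and 2 after rescaling to equal sums. All 3 called homologs of GDP-L-galactose phosphorylase 1, the committed step of ascorbate synthesis, which uses phosphate to split GDP-L-galactose, rose. Sp07g00503 stood at 67.0, 69.1, 85.4 and 64.5 FPKM in control fronds and at 198, 159, 129 and 125 without phosphate. In roots it stood at 40.7, 33.5, 25.4 and 37.5 FPKM in control and at 54.0, 107, 88.9 and 95.6 without phosphate. The separation held in both organs, with a main effect of 1.18 ± 0.14 (SE; adjusted p = 0.000712). The others were Sp04g00400 (0.68 ± 0.20 (SE; adjusted p = 0.0469)) and Sp11g00520 (0.34 ± 0.08 (SE; adjusted p = 0.0197)).

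Heat shock and chaperone genes, the largest list, had 47 rises and 8 falls among 239 tested (23.0%, beside 7.77% of all tested genes), with a median of 0.08. Common genes numbered 11 rises and 1 fall, beside 1.19% and 0.343% of all tested genes. The split was 35 rises and 16 falls after rescaling to equal sums. HSP83 (Sp02g01176), an HSP90-type chaperone, was low in all groups and rose without overlap. It stood at 1.41, 1.41, 0.652 and 0.793 FPKM in control fronds and at 8.57, 7.07, 2.44 and 3.85 without phosphate. The root libraries stood at 0.765, 1.40, 0.356 and 1.27 FPKM in control and at 3.25, 9.39, 4.86 and 7.45 without phosphate. The main effect was 1.70 ± 0.23 (SE; adjusted p = 0.001). Near-identical HSP90 copies may have shared reads, since the handling of reads with several matches is not given in the sources used here.

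Genes for partners of HSP90 were also called. The 70 kDa peptidyl-prolyl isomerase (Sp16g00326), an HSP90 co-chaperone of the FKBP type, rose by 1.17 ± 0.16 (SE; adjusted p = 0.001) and the HSP70-HSP90 organizing protein 2 (Sp13g00101) by 0.93 ± 0.16 (SE; adjusted p = 0.00330). Both were common genes. The p23-1 co-chaperone (Sp06g01013) rose by 0.93 and the mitochondrial 23.6 kDa heat shock protein (Sp07g00981) by 2.25, both with overlap in roots. The plastid chaperones RbcX2 (Sp03g00686), a Rubisco assembly factor, and dnaJ A6 (Sp01g00631) rose by 0.88 and 0.74, with no overlap. A DnaJ protein, Sp01g01025, was the common gene that fell (-1.21 ± 0.20 (SE; adjusted p = 0.00259)).

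The circadian clock list had 2 rises and 7 falls among 17 tested genes (52.9%, beside 7.77% of all tested genes). The median was -0.35, and 4 of the falls were common genes. Without control root library 3 the list had 2 rises and 6 falls (47.1%, beside 5.08% of all tested genes). Without no-phosphate root library 5 it had 2 and 9 (64.7%, beside 13.3%). PRR95 (Sp20g00272, chromosome 20, 1587583 to 1592572), a pseudo-response regulator whose Arabidopsis relatives repress morning clock genes, had the largest fall among the common genes. It stood at 11.6, 21.6, 19.2 and 36.7 FPKM in control fronds and at 1.73, 2.66, 3.93 and 5.29 without phosphate. Its values in roots were 4.04, 5.66, 37.3 and 5.86 FPKM in control and 2.41, 0.934, 1.86 and 2.33 without phosphate. Control root library 3 lay far above the other 3 controls, which still lay above every no-phosphate library. The main effect was -2.07 ± 0.36 (SE; adjusted p = 0.00329) with that library and -1.79 (adjusted p = 0.00300) without it. The root change went from -1.78 (adjusted p = 0.106) to -1.12.

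GIGANTEA, an evening clock protein that also links light to flowering, was listed as 2 adjoining models on the same strand. Sp05g00030 stood at 67.7, 86.7, 60.6 and 91.4 FPKM in control fronds and at 34.4, 38.1, 37.9 and 42.9 without phosphate. Among the root libraries it lay at 53.4, 43.7, 117 and 45.6 FPKM in control and at 36.6, 21.6, 26.9 and 23.9 without phosphate. It fell without overlap by 1.04 on the log2 scale (SE 0.17; adjusted p = 0.00292), and by 0.89 without control root library 3 (adjusted p = 0.00163). Sp05g00031 fell by 1.00 (SE 0.16; adjusted p = 0.00211). A second PRR95 homolog, Sp04g00261, fell by 0.91 (SE 0.18; adjusted p = 0.00664), and by 0.77 without control root library 3, the root change going from -0.75 to -0.43.

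The other called falls were REVEILLE 8 (Sp06g00143, -0.75), PRR73 (Sp10g00993, -0.43) and TIME FOR COFFEE (Sp01g00268, -0.31), which lost its call without control root library 3 (adjusted p = 0.0751). REVEILLE 1 (Sp09g00236), a morning-phased MYB factor, rose by 0.89 ± 0.20 (SE; adjusted p = 0.0134) and REVEILLE 6 (Sp11g00395) by 0.24 ± 0.07 (SE; adjusted p = 0.0414). The call of REVEILLE 6 was lost after rescaling to equal sums (adjusted p = 0.0844). There the list had 1 rise and 9 falls (58.8%, beside 8.51% of all tested genes). The keywords missed a homolog of LATE ELONGATED HYPOCOTYL (Sp20g00279), the central morning factor, which is named here after its values were seen. It was a common gene, at 109, 104, 99.2 and 74.1 FPKM in control fronds and 247, 224, 168 and 163 without phosphate. In roots it stood at 96.1, 96.9, 56.4 and 91.2 FPKM in control and at 114, 137, 123 and 103 without phosphate. It rose by 0.77 ± 0.14 (SE; adjusted p = 0.00497), and control root library 3 was the lowest of its group. Clock transcripts follow the time of day, and the hour of harvest of each flask is not given in the sources used here, and its part in these values was not tested.

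**Figure D4:**
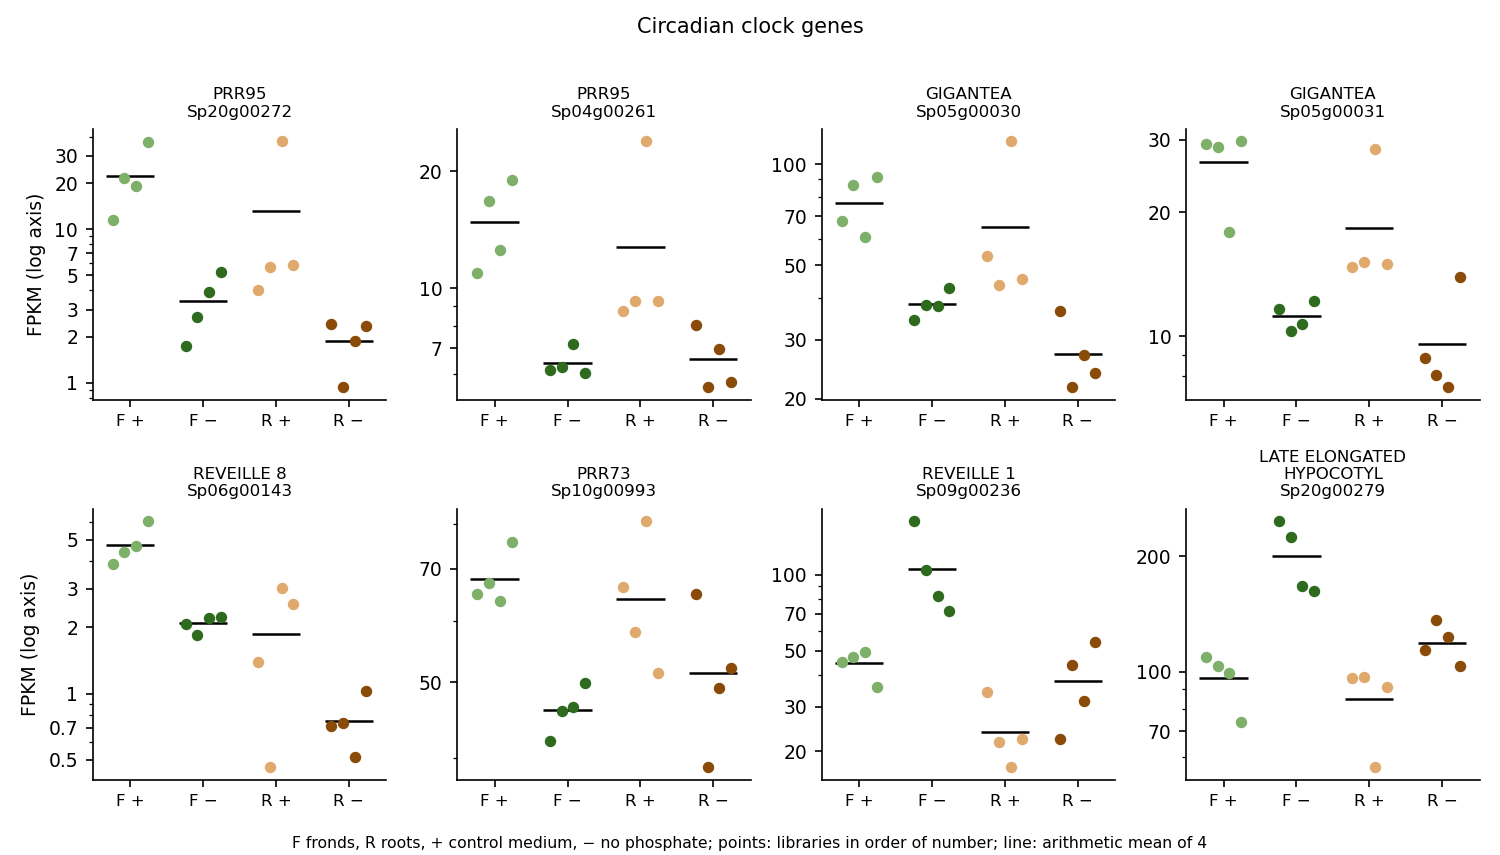
FPKM on log axes of 8 called clock genes, by organ and treatment as in the plot of risen genes. PRR95, GIGANTEA, REVEILLE 8 and PRR73 were lower without phosphate and REVEILLE 1 and LATE ELONGATED HYPOCOTYL higher, and control root library 3 (the third light-brown point) lay above the other control roots for PRR95 and GIGANTEA, at 117 FPKM for Sp05g00030.

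Other lists held fewer common genes. Nitrate and ammonium genes had 4 rises and 1 fall among 21 tested (23.8%; median 0.11) and 0 common genes, although a nitrate transporter of another family, NRT1/PTR 7.3 (Sp11g00245), was a common gene with a main effect of 1.21 ± 0.19 (SE; adjusted p = 0.00235). Copper genes had 4 rises and 2 falls among 38 (15.8%; median 0.04), and the copper chaperone CCH (Sp04g00048) was the common one (0.48 ± 0.10 (SE; adjusted p = 0.00850)). The largest fall of the list, copper transporter 1 (Sp06g01303, -2.38 ± 0.59 (SE; adjusted p = 0.0221)), overlapped in roots, where no-phosphate library 5 stood at 865 FPKM and the other 3 at 52.9 to 145. It lost its call with voom and in 4 settings that left out libraries, with an adjusted p of up to 0.116. After rescaling to equal sums the copper list had 3 rises and 3 falls (15.8%, beside 8.51% of all tested genes). Without no-phosphate root library 5 it had 4 and 4 (21.1%, beside 13.3%). Iron and zinc genes had 4 rises and 1 fall among 42 (11.9%; median -0.08), with Fe(2+) transport protein 2 (Sp17g00168, 0.70 ± 0.15 (SE; adjusted p = 0.00900)) as the common one. Its change was 1.14 in fronds and 0.26 in roots (root adjusted p = 0.377), where control library 1 at 106.97 FPKM and no-phosphate library 5 at 107.16 almost met.

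Abscisic acid and late embryogenesis genes had 7 rises and 0 falls among 48 (14.6%; median 0.00), and 2 were common. After rescaling to equal sums the list had 7 rises and 3 falls (20.8%, beside 8.51% of all tested genes). Without no-phosphate root library 5 it had 8 and 3 (22.9%, beside 13.3%). One of the common genes was the dioxygenase NCED3 (Sp02g00214), which opens abscisic acid synthesis. It stood at 0.176, 0.378, 0.103 and 0.213 FPKM in control fronds and at 8.31, 4.27, 0.648 and 1.09 without phosphate. The root libraries stood at 0.857, 0.174, 0.620 and 0.443 FPKM in control and at 0.919, 3.64, 0.876 and 1.86 without phosphate. The control values are near the level of 3 reads, which was worth 0.213 to 0.507 FPKM per 1 kb of gene, so its main effect of 1.19 ± 0.31 (SE; adjusted p = 0.0273) is a value of low reads.

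Starch and sugar genes had 10 rises and 4 falls among 112 (12.5%; median -0.00), with sucrose-phosphatase 2 (Sp07g00095), the last step of sucrose synthesis, among the common rises (0.62 ± 0.11 (SE; adjusted p = 0.00330)). After rescaling to equal sums that list had 7 rises and 7 falls (12.5%, beside 8.51% of all tested genes). Without no-phosphate root library 5 it had 16 and 10 (23.2%, beside 13.3%). A trehalose-phosphate synthase 9 homolog (Sp05g00747) was the common fall (-1.05 ± 0.21 (SE; adjusted p = 0.00786)). Photosynthesis genes had 6 rises and 1 fall among 68 (10.3%, beside 7.77% of all tested genes), with a median of -0.10 and 0 common genes. Rubisco activase (Sp01g01702), which keeps Rubisco active, rose by 1.72 ± 0.29 (SE; adjusted p = 0.00292), from 1474 ± 399 to 4792 ± 1173 FPKM in fronds and from 130.5 ± 44.2 to 494 ± 277 FPKM in roots (mean ± SD, n = 4), with no-phosphate root library 5 at 144 FPKM inside the control range. After rescaling to equal sums the photosynthesis list had 6 rises and 10 falls (23.5%, beside 8.51% of all tested genes). Without no-phosphate root library 5 it had 8 and 10 (26.5%, beside 13.3%).

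Of 133 cytosolic ribosomal proteins 0 rose and 2 fell (1.5%), while 115 had a main effect above 0. Their median change was 0.35 in fronds and -0.11 in roots, a difference that was not tested for the list. Without no-phosphate root library 5, 4 rose and 2 fell. Organellar ribosomal proteins had 5 rises and 0 falls among 76 (6.58%, beside 7.77% of all tested genes), with a median of 0.11. DNA replication and cell cycle genes had 1 rise and 0 falls among 111 (0.901%; median 0.06). The rise, of histone H2AX (Sp01g00846), lost its call in 22 of 38 alternatives, and without no-phosphate root library 5 the list had 7 rises and 2 falls (8.11%, beside 13.3% of all tested genes). Of the 36 frond markers 3 rose and 0 fell (8.33%, beside 7.77% of all tested genes). After rescaling to equal sums 3 rose and 7 fell (27.8%, beside 8.51%). Without no-phosphate root library 5 the counts were 4 and 7 (30.6%, beside 13.3%). Of 29 tested root markers 0 rose and 1 fell, against 0 and 2 in both of those alternatives. The lists together held 56 of the 255 common genes, and the other 199 lay outside them.

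**Figure D5:**
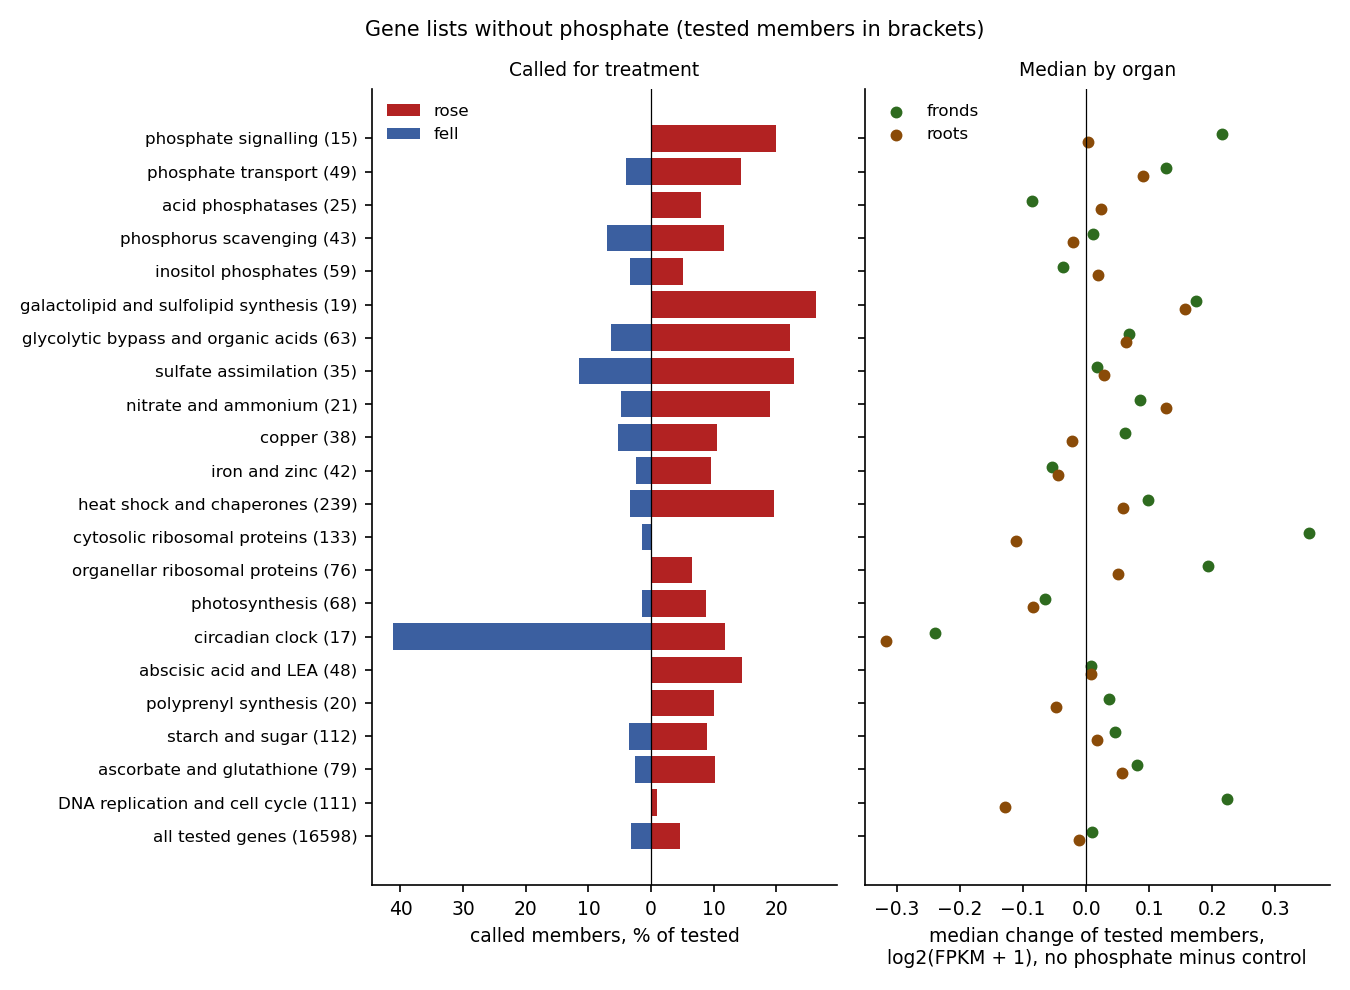
Left, the share of tested members of each gene list called for the main effect of treatment, with rises to the right and falls to the left of 0. Right, the median change of the tested members in fronds and in roots on the log2(FPKM + 1) scale. The bottom line gives all 16598 tested genes, of which 4.64% rose and 3.13% fell, and the clock list, with 7 falls among 17 genes, reaches farthest to the left.

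Among the largest common genes outside these lists, rises were those of a protein with a domain of the NADH-ubiquinone reductase (Sp07g00771, 1.33 ± 0.20 (SE; adjusted p = 0.00152)), an FSH1-type serine hydrolase (Sp07g00968, 1.12), an ABC1-family protein (Sp02g00178, 1.03) and a FANTASTIC FOUR-like protein (Sp12g00627, 0.95). Falls were those of a hydrolase of the dienelactone type (Sp04g00300, -1.21), the ubiquitin ligase XB3 (Sp01g01637, -1.06), the amino acid carrier GABA transporter 1 (Sp11g00141, -0.97 ± 0.14 (SE; adjusted p = 0.00112)) and the F-box protein EID1-like 2 (Sp09g00997, -0.88). Genes with no homolog or domain were also among them. Sp16g00472 rose from 2.45, 3.94, 1.92 and 1.97 to 27.3, 11.6, 16.3 and 5.45 FPKM in fronds and from 5.74, 2.83, 4.31 and 1.03 to 8.16, 16.2, 13.5 and 18.5 FPKM in roots. Its main effect was 1.93 ± 0.28 (SE; adjusted p = 0.00152). Sp02g01115 rose by 1.3 and Sp03g00955 by 1.13. The latter is a gene of low reads, with control means of 0.41 FPKM in fronds and 0.34 in roots, and its change ran from 0.40 to 2.43 over the alternatives.

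2 root libraries stood apart within their groups for many of these genes. No-phosphate root library 5 was the lowest of its group for 7 of the 8 plotted rises, and control root library 3 was the highest for the common falls of the clock. Without library 5 the main effect was called for 2200 genes, against 1290 with it, and the test of both organs called 21. These 21 comprised 20 rises and the fall of autophagy-related protein 11 (Sp05g00936). They included cis-prenyltransferase 4, inositol-3-phosphate synthase, DSP1, GDP-L-galactose phosphorylase Sp07g00503, the 70 kDa peptidyl-prolyl isomerase, Rubisco activase and stromal HSP70 (Sp11g00106), with adjusted p between 0.0222 and 0.0460. Leaving out a library that lies near the controls enlarges the root change, for DSP1 from 0.91 to 1.09. The 21 calls are therefore no support for a change in both organs, for which all 16 libraries gave 0 calls. Without control root library 3 the main effect was called for 844 genes (551 rises, 293 falls). In the whole set of 38 alternatives, all 1290 genes kept their direction wherever they were tested. The choice of genes by a small p in the same libraries largely fixes this. Of the 95 genes named by the rule, 74 kept their call in every alternative. Genes named outside the rule were not part of that count.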

How the data were processed

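RNA of 16 libraries, 4 per organ and treatment, was available as 1 table of FPKM deposited by the authors. The submitters' processing notes name HISAT2 2.0.5 and featureCounts 1.5.0-p3. Not given in the sources used here are the genome build, the annotation, the strand setting and how reads with several matches were treated. The numbers in the column names could not be tied to labelled replicates. With a tolerance of 0.001 reads, 100% of values were whole multiples of 1 read, which gave the recovered reads. One emptied line of the table was not used.

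Genes averaging 0.5 FPKM or more were tested on log2(FPKM + 1) with limma 3.58.1 (statmod 1.5.0, R 4.3.3), with a trend and robust prior, treatment plus tissue as terms (13 residual degrees of freedom), and 4 group means for single organs, the test of both organs and the interaction (12). Calls used a Benjamini-Hochberg adjusted p under 0.05 over all tested genes. The steps were run on simulated data with independent libraries. These held no shared flask and no library standing apart, so they cannot speak to either. P-values measure the spread between these libraries. Alternatives covered the pseudocount, filter, scaling, prior, weights, replicate block and left-out libraries.

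The members and lists were chosen with earlier results of these data known. Genes were named by a rule: the 15 largest rises and falls among described common genes reaching a mean of 5 FPKM in their highest group, up to 4 called members per list by adjusted p, and the largest common changes of genes with no description. Other genes named were chosen after their values were seen, among them SPX3, PHR2, purple acid phosphatase 17, phospholipases D, the alternative oxidase, PFP beta, REVEILLE factors, PRR73, TIME FOR COFFEE, p23-1, the small and stromal heat shock proteins, NCED3, adenylyl-sulfate kinase 3 and further copies of named homologs.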

Additional observations from a re-analysis of the deposited data

Results flagged for a closer look

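Of 380 gene-by-group sets of 4 libraries for the named genes, 26 (6.84%) held a library far from the other 3. The cut-off marks about 1 in 20 independent sets of normal values. These genes were chosen by their values and share the same 16 libraries, so the share cannot be compared with that rate. Control root library 3 accounted for 10 of them, no-phosphate root library 5 for 5 and control root library 1 for 3. All values here are FPKM.

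Control root library 3 stood above its group for clock genes: PRR95 was at 37.35 (others 4.039 to 5.855), its homolog Sp04g00261 at 23.89 (8.724 to 9.274), and the GIGANTEA models Sp05g00030 at 116.9 (43.65 to 53.39) and Sp05g00031 at 28.43 (14.7 to 15.13). The same library was high for the hydrolase Sp04g00300 at 30.67 (10.7 to 11.15), the DnaJ protein Sp01g01025 at 63.43 (25.96 to 31.62) and XB3 (Sp01g01637) at 73.48 (38.93 to 41.88). It was also high for bifunctional nuclease 2 at 606.7 (296.1 to 319.6), a purine synthesis enzyme (Sp14g00785) at 22.43 (11.44 to 12.11) and aspartokinase/homoserine dehydrogenase 2 (Sp08g00740) at 25.26 (9.549 to 11.28). All 10 of these genes fell for the main effect, so that library enlarged their root change.

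No-phosphate root library 5 was low for 3 genes that rose: Sp03g00485 at 19.2 (37.98 to 41.72), the ABC1 protein Sp02g00178 at 35.97 (53.14 to 56.68) and the HSP70-HSP90 organizing protein 2 at 33.33 (70.66 to 73.22). It was high for 2 genes that fell, copper transporter 1 at 865.4 (52.86 to 144.8) and the metal transporter YSL12 (Sp02g00551) at 47.33 (25.29 to 27.56). In these 5 genes that library lay nearer to the control roots than its group did.

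The other 11 were scattered. Control root library 1 was high for Sp03g00485 at 18.99 (13.43 to 13.95), the dehydrin Sp02g00888 at 122 (101.1 to 104.2) and the late embryogenesis protein Sp08g00749 at 44 (20.3 to 23.08). Control root library 4 was high for the ribosomal protein Sp13g00322 at 31.75 (24.36 to 25.36) and the late embryogenesis protein Sp18g00034 at 0.5973 (0.2821 to 0.3348). No-phosphate root library 6 was low for histone H2AX (Sp01g00846) at 39.96 (54.03 to 56.63). In control fronds, library 3 was low for GIGANTEA Sp05g00031 at 17.95 (28.75 to 29.74) and high for DSP1 at 32.92 (18.53 to 20.31), library 2 was high for inositol monophosphatase 3 at 91.37 (79.08 to 80.11), and library 4 was low for Sp12g00673 at 195.1 (230.9 to 235.3). No-phosphate frond library 5 was high for purple acid phosphatase 27 at 25.24 (18.65 to 19.36).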

How the results depend on the processing

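All 1290 called genes kept their direction in every alternative that tested them, which their choice by a small p in the same libraries largely fixes. Library weights called 2026 genes, with 940 falls, and rescaling to equal sums gave 858 falls. The test of the interaction, with 0 calls, gave 6 with a pseudocount of 5, 2 after rescaling to equal sums, 1 with library weights and 2 with voom on the recovered reads, a setting added once the values were known. With libraries left out, calls ranged from 542 to 2200, rises from 381 to 1150, falls from 154 to 1050, calls in both organs from 0 to 21 and interaction calls from 0 to 116. The largest counts came without no-phosphate root library 5 (main effect) or 6 (interaction); the cause was not tested. Correlations of same-numbered frond and root libraries ran from -0.116 to 0.147. Weak correlations cannot show whether such libraries came from 1 flask. With the number within a treatment taken as the flask, a random replicate block gave 1426 calls. That fit used a negative consensus correlation within a number, of -0.0315. The number as a fixed replicate block gave 1092 calls and means of same-numbered pairs 909. Of 95 genes named by the rule, 21 lost their call in at least 1 of 38 alternatives and 0 reversed. The planned edgeR and DESeq2 fits were not run, since the deposited unit is FPKM. Depth limits genes near 3 reads, 0.213 to 0.507 FPKM for a gene of 1 kb.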

Other observations

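Common genes outside the lists, chosen after their values were seen, included 3 homologs of Sgpp, a phosphatase of small phosphorylated sugars in Arabidopsis. Sp20g00503 stood at 14.0, 17.6, 18.6 and 11.8 FPKM in control fronds and at 38.3, 36.3, 33.1 and 29.9 without phosphate, and its root means were 82.5 ± 16.3 and 127 ± 20 FPKM (SD, n = 4). Its main effect was 0.87 ± 0.13 (SE; limma adjusted p = 0.00152). The adjoining models Sp11g00310 and Sp11g00311 rose by 0.81 and 0.83. Whether these are parts of 1 gene was not tested.

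Plastid isoprenoid genes were also among them. Phytoene synthase (Sp13g00811), the first committed step to carotenoids, rose from 133 ± 19.0 to 270.4 ± 43.8 FPKM in fronds and from 43.1 ± 6.27 to 69.1 ± 15.3 FPKM in roots (SD, n = 4), with a main effect of 0.83 ± 0.12 (SE; limma adjusted p = 0.00152). The methyltransferase Sp09g00842, which acts in plastoquinone and tocopherol synthesis, rose by 0.84 ± 0.11 (SE; limma adjusted p = 0.001). Both models of the receptor kinase FERONIA, Sp01g01291 and Sp01g01292, which adjoin on chromosome 1, fell by 0.60 and 0.72 on the log2 scale.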
